A study of Mus musculus with 20 samples.

Results

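Of the POU genes other than Pou5f1 and Pou3f1, 8 were examined in the ATAC-seq peak list of mouse embryonic stem (ES) cells. Others, such as Pou1f1, Pou3f4, Pou4f3 and Pou5f2, are outside this set. The 8 genes are Pou2f1, Pou2f2, Pou2f3, Pou3f2, Pou3f3, Pou4f1, Pou4f2 and Pou6f1. A listed peak belonged to them when it overlapped one of these genes, as annotated by GENCODE in the mouse build GRCm38 (mm10), or lay within 50000 bp of it. This rule took 113 of the 102373 listed peaks and did not use any measured signal. Each of the 113 peaks fell to 1 gene.

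ATAC-seq marks open chromatin by the sites at which a transposase can insert adapters. The libraries came from ZHBTc4 cells, a mouse ES cell line whose only OCT4 gene is shut off by doxycycline (dox), grown with serum, LIF and inhibitors of MEK and GSK3. All groups carried YPet-MD, a fluorescent reporter of the cell cycle, together with a lentiviral OCT4 fusion, either SNAP-MD-OCT4 or SNAP-MD*-OCT4. In SNAP-MD-OCT4 a Cyclin B1 degron strongly lowers the protein at the passage from mitosis to G1, without removing it fully. In SNAP-MD*-OCT4 a mutated degron spares it. Both fusions were expressed at levels under that of wild-type OCT4. Of the 20 libraries in 10 groups of 2, 16 came from cells held in 1 µg/ml dox for 40 h and sorted by phase, and 4 from cells without dox (noDOX). The phases were EG1 and LG1, the early and late parts of G1, S phase, and SG2, which joins late S to G2. Both lines were transduced pools sorted for SNAP and YPet level, and OCT4 in dox came from the transgene alone. The list gives only the chromosome, start and end of peaks merged over the 16 libraries with dox. It holds no signal, depth or replicate values, so a listed peak was open in at least 1 of those libraries, and neither MD-OCT4 and MD*-OCT4 nor the 4 phases can be compared at any POU gene.

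POU proteins are transcription factors that bind DNA through a POU-specific domain and a homeodomain joined by a flexible linker. Most recognise the octamer ATGCAAAT or its variants, and OCT4, encoded by Pou5f1, pairs with SOX2 on a composite of a SOX site and an octamer in ES cells. The relatives examined here are known from other settings. Pou2f1 (OCT1) is expressed in nearly all cells, Pou2f2 (OCT2) in B lymphocytes, and Pou2f3 (OCT11) in keratinocytes and tuft cells. Pou3f2 (BRN2) and Pou3f3 (BRN1) act in neural progenitors and neurons, Pou4f1 (BRN3A) and Pou4f2 (BRN3B) in sensory neurons and retinal ganglion cells, and Pou6f1 (BRN5) was described in the brain.

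Exact octamers were found in 2 of the 113 peaks (1.77%), near the share of 1.71% over all listed peaks, counted in the central 300 bp. Both of these peaks lay at starts of Pou2f3. The first 2 sequences show these sites in GRCm38, with the octamers in capitals. The peak at the upstream start held a pair of octamers on the same strand, separated by 13 bp.
Pou2f3 internal start, chr9:43205946-43206005, minus strand: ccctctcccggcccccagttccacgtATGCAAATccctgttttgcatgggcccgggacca
Pou2f3 upstream start, chr9:43210117-43210179, plus strand: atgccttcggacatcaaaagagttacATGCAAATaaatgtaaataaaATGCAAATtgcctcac
The next sequences show the only matches to the OCT4::SOX2 composite and to a POU4-type site anywhere inside the 113 peaks. In the third, capitals mark the composite, matched with 2 mismatches, in a distal peak inside an intron of Dedd2 upstream of Pou2f2. In the fourth, capitals mark a POU4-type site (GCATAATTA) in a peak downstream of Pou3f3, at a start of the noncoding gene Pantr2.
Composite match upstream of Pou2f2, chr7:25209017-25209083, minus strand: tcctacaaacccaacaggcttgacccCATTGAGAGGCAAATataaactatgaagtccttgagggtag
POU4-type site downstream of Pou3f3, chr1:42713990-42714050, plus strand: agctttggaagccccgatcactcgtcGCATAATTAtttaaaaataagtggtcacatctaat
The last 3 sequences are the 120 bases before RefSeq start sites of GRCm38.p6, with CG dinucleotides in capitals, and contrast open promoters with a start that had no listed peak.
Pou4f1, inside a listed peak, chr14:104468000-104468119, minus strand: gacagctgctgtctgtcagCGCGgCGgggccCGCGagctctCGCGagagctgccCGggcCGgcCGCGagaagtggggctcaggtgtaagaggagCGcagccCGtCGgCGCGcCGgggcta
Pou3f2, inside a listed peak, chr4:22488367-22488486, minus strand: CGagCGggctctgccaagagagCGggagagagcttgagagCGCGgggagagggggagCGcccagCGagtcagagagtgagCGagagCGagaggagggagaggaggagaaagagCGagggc
Pou2f1 internal start without a listed peak, chr1:165934949-165935068, minus strand: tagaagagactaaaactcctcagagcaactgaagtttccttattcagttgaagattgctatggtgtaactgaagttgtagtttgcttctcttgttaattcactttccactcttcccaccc

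Every one of the 8 POU genes had a listed peak at a transcription start site (TSS). A peak counted as at a TSS when it lay at most 1000 bp from it, and 70.4% of 21938 protein-coding genes had such a peak. All 8 genes also had one when the peak had to overlap the TSS (65.9% of protein-coding genes) or when the annotated 5′ end alone was used (66.1%). Over all their transcripts the 8 genes had 35 distinct TSS, of which 24 had a peak within 1000 bp and 19 lay inside one. Pou2f1 alone gave 8 of the 24 and 8 of the 19. These counts depend on how many starts are annotated per gene, and no share over all annotated TSS is given beside them. The genes with a TSS that had no listed peak within 1000 bp were Pou2f1, where 8 of 14 TSS had one, and Pou6f1, where 3 of 8 did.

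Further genes were searched in the same way, and among the POU genes given here Pou1f1 alone did not share this pattern. Over all protein-coding genes 70.4% had a listed peak at a TSS. Pou3f1, Pou3f4, Pou4f3, Pou5f1 and Pou5f2 had a listed peak over a TSS. The nearest peak lay 8144 bp from a TSS of Pou1f1, the pituitary factor, and 45099 bp from a TSS of Pou2af1, which encodes the B cell coactivator of OCT1 and OCT2 and is no POU gene itself. These 7 further genes, Pou2af1 included, had 54 peaks in all.

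Peak density was highest at Pou6f1 and Pou2f2 and lower, over a narrow range, at the other 6 POU genes. The gene and its flanks held 15.2 listed peaks per 100 kb at Pou6f1 and 14 at Pou2f2, which had 19 and 27 peaks. The values then fell to 9.31 at Pou3f3 (10 peaks), 8.58 at Pou2f3 (16), 8.46 at Pou4f1 (9), 7.72 at Pou4f2 (8), 7.16 at Pou2f1 (17) and 6.63 at Pou3f2 (7). The median of the 8 genes was 8.52 peaks per 100 kb, against 6.97 over all protein-coding genes, whose quartiles were 2.87 and 11.5. Pou3f2 alone lay under that median, and 9.61% and 13.6% of protein-coding genes were as dense as Pou6f1 and Pou2f2 or denser.

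**Figure D1:**
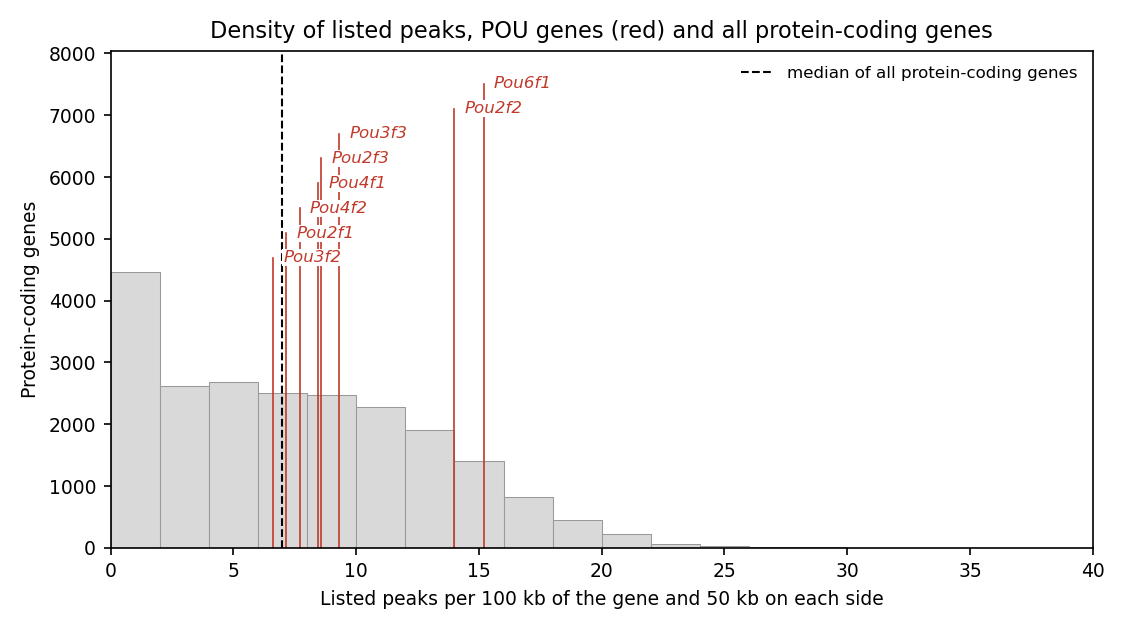
Listed peaks per 100 kb of each gene and its 50000 bp flanks (x axis) against the number of protein-coding genes (y axis, grey bars), with the 8 POU genes as red lines whose heights only separate the names. Pou6f1 and Pou2f2, at 15.2 and 14, stand above the upper quartile of 11.5, and the other 6 POU genes lie between 6.63 and 9.31.

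Pou6f1 and Pou2f2, the densest, had neighbouring genes in their windows, but density did not follow the number of neighbours throughout. Pou2f3 with 3 neighbours, at 8.58, lay under Pou3f3 with 0, at 9.31. The windows of Pou2f2, Pou2f3 and Pou6f1 contained the starts of 4, 3 and 3 other protein-coding genes, while those of the other 5 POU genes contained 0. Among the 3911 protein-coding genes with 0 such neighbours the median was 3.16 peaks per 100 kb (quartiles 0.987 and 6.78). The 5 examined POU genes of that kind all exceeded it, with values of 6.63 to 9.31, 4 of them above the upper quartile. Further genes of the family with 0 such neighbours did not all do so. Pou3f4 and Pou5f2 lay under this median, at 1.94 and 2.96, and Pou4f3 lay above the upper quartile, at 6.82. The excess therefore holds for the examined genes and not for the whole family. Among the 5107 genes with 3 or 4 neighbours the median was 8.58 (quartiles 4.54 and 12.5), which Pou2f3 equalled after rounding and Pou2f2 and Pou6f1 exceeded. With flanks of 100000 bp the median of the POU genes was 6.56 peaks per 100 kb against 6.78 over all protein-coding genes, so the higher density held for the nearer surroundings. With flanks of 10000 bp the medians were 16.5 and 7.33.

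Of the 113 peaks, 72 were distal, that is more than 1000 bp from every annotated TSS. This was 63.7% (exact binomial 95% interval 54.1 to 72.6, counting error only, with peaks of 1 locus not independent), and 74.9% of all listed peaks were distal. A further 22 peaks lay at a TSS of the POU gene itself and 19 at a TSS of another gene alone. Some of the 22, at Pou2f1, Pou3f2, Pou3f3 and Pou6f1, also lay at a TSS of another, noncoding gene. By their centres, 52 peaks fell in introns, 31 between genes, 16 in untranslated regions, 8 in coding exons and 6 in noncoding exons. Relative to the POU gene, 46 lay upstream, 38 overlapped the gene and 29 lay downstream.

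**Figure D2:**
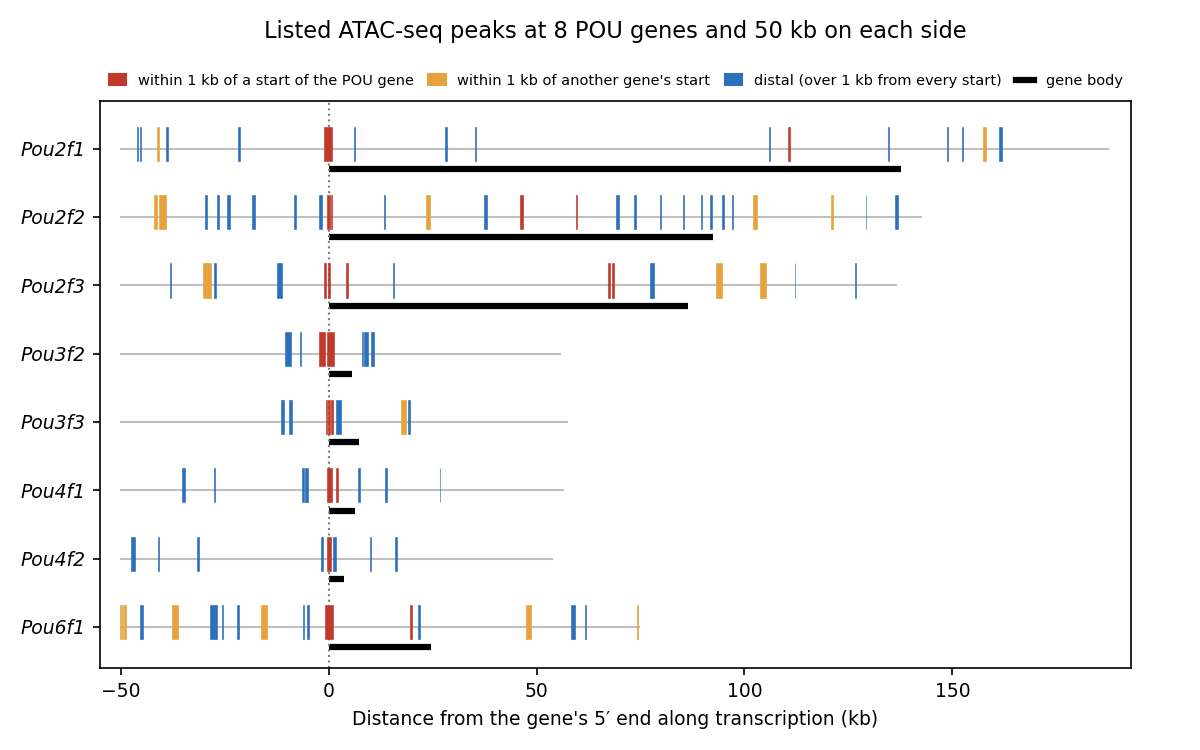
Position of each of the 113 listed peaks (vertical bars) relative to the 5′ end of its POU gene, in kb along the direction of transcription, with gene bodies in black and 50000 bp of flank in grey. Among the short genes, all 7 peaks of Pou3f2 lie within 10000 bp of the gene. The same holds for 5 of 10 peaks at Pou3f3, 6 of 9 at Pou4f1 and 4 of 8 at Pou4f2. Pou2f1 shows a gap of 70448 bp inside the gene.

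Pou2f1, the broadly expressed OCT1 gene (chromosome 1, 165865154 to 166002678, minus strand), had a wide peak at its upstream start and sparse peaks elsewhere. A peak of 1806 bp (166001867 to 166003672) covered 7 of its TSS, with a GC content of 67.6% and a ratio of observed to expected CpG of 0.984. This ratio is near 1 in CpG islands and low in most of the mouse genome. Downstream of it, 3 peaks of 202 to 397 bp were followed by 70448 bp without a listed peak, between 165896682 and 165967129, where 5 annotated TSS lie. The group of internal TSS between 165934900 and 165935011 lay 32119 to 32230 bp from the nearest peak. The remaining peaks inside the gene were narrow, from 176 to 397 bp. Past its 3′ end, 4 peaks lay in introns of Cd247, which encodes the zeta chain of the T cell receptor.

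In RefSeq promoter windows, which run from 250 bases before to 50 after a start, the same contrast appeared. The Pou2f1 window at 166002585 to 166002884 held 32 CG dinucleotides and lay wholly inside the listed peak, whereas the windows at 165953022 and 165934899 held 2 each and met no peak. Windows were found for 7 of the 8 genes, 9 in all, and not for Pou2f3. Of the 32851 promoter windows in the table, 48.9% overlapped a listed peak, and this share was 97.4% with 16 or more CG, 53.9% with 6 to 15 and 9.43% with 5 or fewer. The 6 POU windows with 16 or more CG all overlapped a peak, and the other 3 did not. Pou4f1 had the most, with 57 CG in 300 bases, a number reached by 0.152% of promoter windows, followed by Pou2f1 with the 32 given above, Pou6f1 with 26, Pou3f2 with 24, and Pou3f3 and Pou4f2 with 18 each. The median promoter window held 7.

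Pou2f2, the OCT2 gene of B cells (chromosome 7, 25087344 to 25179726, minus strand), had the largest number of peaks, 27, of which 18 were distal. The gene held 13 peaks from its start to its last exon. Over the gene and its flanks, the longest stretch without a peak was 17668 bp, in the downstream flank, and was shorter than the longest stretch at any of the other 7 genes. At its upstream end a peak of 807 bp (25179340 to 25180146) with a GC content of 69.4% covered a TSS that belongs to a noncoding transcript. Its coding transcripts begin elsewhere. The coding TSS between 25132477 and 25132512 lay outside every listed peak, 377 to 412 bp from a peak of 855 bp (25132889 to 25133743), and the RefSeq window there held 13 CG and met no peak. Around the gene, 4 further peaks lay at starts of Grik5, of Zfp574 and of the neighbours Dedd2 and Zfp526, and 1 inside it lay at a start of the noncoding gene D930028M14Rik.

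Pou2f3, the OCT11 gene (chromosome 9, 43123939 to 43210369, minus strand), had 16 peaks, 5 of them at its own TSS. All 3 of its TSS lay inside peaks. The peak at the upstream start (43210012 to 43210593) was 582 bp wide with a CpG ratio of 0.319, and that at the internal coding start (43205593 to 43206100) was 508 bp wide with 0.596. Both ratios were under those of the peaks over the upstream starts of the other 7 genes, which ran from 0.661 to 1.03. The peak at the internal start had a GC content of 71.7%, the highest of all 113. Its octamer lay 217 bp upstream of the TSS at 43205755, and the octamer pair at the other peak lay 198 and 219 bp downstream of the TSS at 43210369. Distal peaks of Pou2f3 were the poorest in CpG, with a median ratio of 0.127 over 7 peaks. A further 4 peaks lay at starts of Arhgef12, Tmem136 and Oaf.

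The neural genes Pou3f2 and Pou3f3 are short genes with a single coding exon, and their peaks gathered close to them. Pou3f2 (chromosome 4, 22482780 to 22488366, minus strand) had 7 peaks, all within 10000 bp of the gene, and no more were found out to 100000 bp. A peak of 1731 bp (22487042 to 22488772) ran across the start and into the coding exon. A second of 1372 bp (22489293 to 22490664) lay just upstream, over a start of the noncoding gene Gm30731. Of 5 distal peaks the widest was 1518 bp (22497306 to 22498823), which was also the widest distal peak of all 8 genes. The CpG ratio of these distal peaks had a median of 0.600, where distal peaks of the whole list had 0.218.

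Pou3f3 (chromosome 1, 42695768 to 42703176, plus strand) had 10 peaks, within a region that also transcribes the noncoding genes Pantr1, Pantr2 and AC122898.1. Its start region was split into 3 peaks of 368, 418 and 476 bp, of which the second (42695575 to 42695992) covered the TSS. The widest peak of the gene, 1205 bp (42697551 to 42698755), lay in the coding exon, with a GC content of 69.8% and a CpG ratio of 0.967. Here too no peak was added between 50000 and 100000 bp from the gene. The 6 distal peaks had a median CpG ratio of 0.6485, the highest of the 8 genes, although 2 narrow peaks downstream had only 0.0775 and 0.163.

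Pou4f1 and Pou4f2, which specify sensory neurons and retinal ganglion cells, were open in the same parts of the gene. Pou4f1 (chromosome 14, 104461676 to 104467999, minus strand) had 9 peaks. A peak of 1285 bp (104467195 to 104468479) covered its coding TSS with a CpG ratio of 1.03, and a peak of 426 bp (104465798 to 104466223) lay wholly in coding sequence with 1.18, the highest ratio of the 113 peaks. Pou4f2 (chromosome 8, 78433010 to 78436645, minus strand) had 8 peaks. A peak of 1054 bp (78436054 to 78437107) covered its only TSS, and a peak of 639 bp (78434847 to 78435485) lay wholly in coding sequence. The ratios there were 0.752 and 0.732. Away from the genes, 3 peaks upstream of Pou4f2, between 78467804 and 78484139, had ratios of 0.132 to 0.206 and GC contents of 41.3% to 44.4%.

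Pou6f1, the BRN5 gene (chromosome 15, 100575318 to 100599984, minus strand), had 19 peaks, of which 7 lay at TSS of other genes alone and 2 at its own. The peak over its upstream start was the widest of the 113 (100598892 to 100600879, 1988 bp), with a CpG ratio of 0.661. A second peak of 425 bp (100579955 to 100580379) covered an internal noncoding TSS. The 5 TSS between 100584212 and 100595034 lay 3833 to 6958 bp from the nearest peak. The neighbours with a peak at a start included Tfcp2, Dazap2, Smagp and Bin2. Annotated repeats made up 61.8% to 100% of 4 distal peaks around Pou6f1, and the median over its 10 distal peaks was 28.0%, where distal peaks of the whole list had 12.4%.

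Coding sequence itself lay in listed peaks to very different extents. The share of coding bases inside a peak was 81.6% in Pou3f2, 75.7% in Pou4f2, 72.8% in Pou3f3 and 43.5% in Pou4f1. It was 19.1% in Pou6f1, 11.5% in Pou2f1, 6.73% in Pou2f3 and 2.48% in Pou2f2, and the median of 21911 protein-coding genes was 2.47%. A share as high as in Pou3f2, Pou4f2 and Pou3f3 was reached by 2.46%, 2.88% and 3.16% of protein-coding genes. The 4 neural genes have 1 or 2 coding segments, and among the 4765 protein-coding genes with at most 2 segments the median was 0.0%, with 17.3% at or above the value of Pou4f1.

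**Figure D3:**
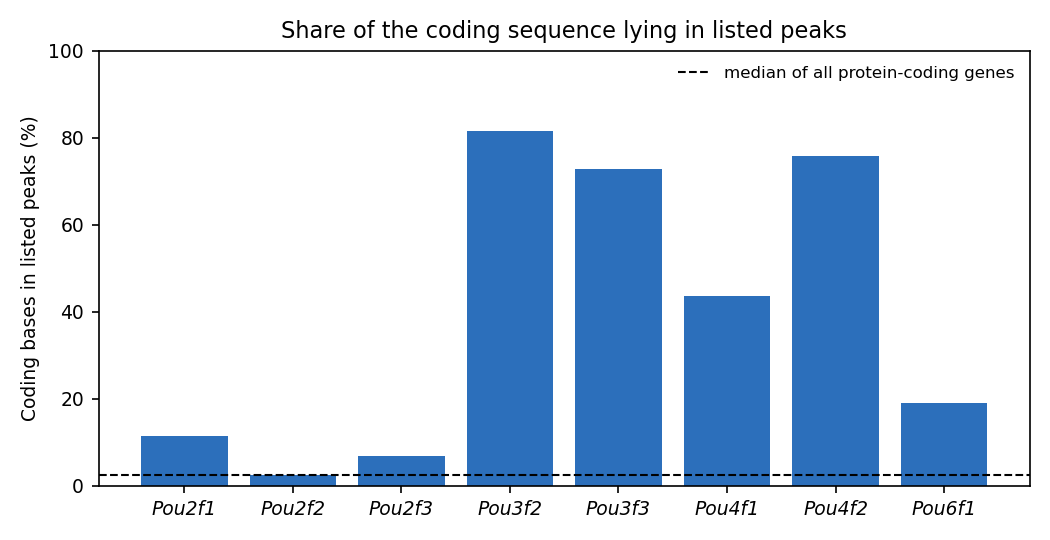
Percent of the annotated coding bases of each POU gene that lie in listed peaks (bars), with the median of all protein-coding genes, 2.47%, as a dashed line. The values of Pou3f2, Pou3f3, Pou4f1 and Pou4f2, 43.5% to 81.6%, all exceed those of Pou2f1, Pou2f2, Pou2f3 and Pou6f1, 2.48% to 19.1%.

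The peaks of the POU genes were somewhat wider and richer in G and C than the list as a whole. Their widths ran from 139 to 1988 bp with a median of 487 bp, against 415 bp over all listed peaks, and 27.4% were narrower than 300 bp, against 35.8%. This order did not hold near starts, where the median was 692 bp over 41 promoter-proximal POU peaks and 815 bp over all such peaks. Among distal peaks the medians were 432 and 352 bp. The median GC content was 55.1% against 50.1%, and among distal peaks 52.7% against 48.6%. For the CpG ratio the medians were 0.347 and 0.259 over all peaks, 0.302 and 0.218 over distal ones.

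**Figure D4:**
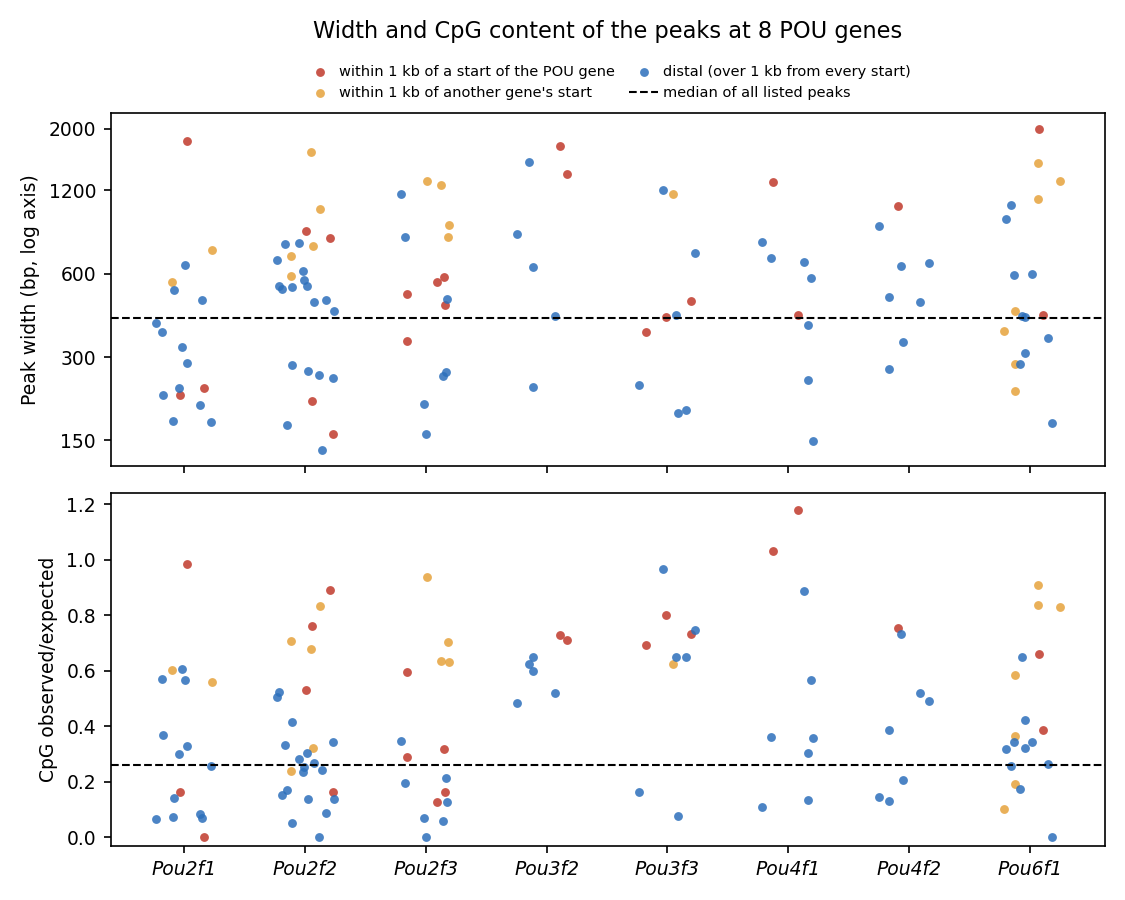
Width (upper panel, bp, log axis) and observed over expected CpG (lower panel) of each listed peak at each POU gene, with points coloured by their position relative to TSS and spread sideways for visibility. The dashed lines are the medians of all listed peaks, 415 bp and 0.259, and all 7 peaks of Pou3f2 lie above the CpG line.

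Recognition sequences of POU proteins and of their partners were then counted in the 300 bp around each peak centre, on both strands. The octamer ATGCAAAT was present in 2 POU gene peaks (1.77%), and in 1.71% of all listed peaks. It was found in 1.74% of all RefSeq promoter windows and in 0 of the 9 of the POU genes. With 1 mismatch allowed it was present in 11 POU gene peaks (9.73%), against 20.2% of all peaks. The OCT4::SOX2 composite, which is the SOX core CATTGT, 1 further base and the octamer, was matched with at most 2 mismatches in 0 of the 113 peaks (exact binomial upper limit 3.21%), where 0.456% of all peaks had it. Up to 3 mismatches it was matched in 0, against 3.39% of all peaks. The match printed above lay outside the central window of its peak.

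The palindromic core GCATATGC, on which POU proteins bind as dimers, was matched in 0 peaks, against 0.346% of all, and the POU4-type site, a strong site of the Pou4 proteins, in 0, against 0.122%. At shares this low over the whole list, a difference was not detectable in 113 peaks. The SOX core CATTGT was in 10 peaks (8.85%, exact binomial 95% interval 4.33 to 15.7), against 17.1% of all peaks, and these were 4 at Pou2f2, 2 at Pou4f2, 2 at Pou6f1 and 1 each at Pou3f2 and Pou4f1. The SOX core overlaps the composite, whose first part it is.

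The GC content of the windows moved with the SOX share. Under 50% GC, 5 of 29 POU windows (17.2%) and 23.8% of all windows had the SOX core. From 50% to 60% GC it was 4 of 51 (7.84%) and 13.9%, and from 60% GC it was 1 of 33 (3.03%) and 4.77%. The octamer with 1 mismatch gave 17.2% and 29.7%, 9.8% and 14.9%, and 3.03% and 4.39% in the same order. The share in POU windows was the lower one in each GC class, on small numbers of windows, and the part of GC content in the difference was not tested.

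Among other factors of ES cell chromatin, the site TCAAGGTCA of ESRRB, a nuclear receptor of the pluripotency network, was in 1 peak (0.885%), upstream of Pou6f1, against 1.93% of all peaks. The KLF consensus, searched by name without mismatch, was in 8 peaks (7.08%) against 5.85%, and 5 of the 8 lay at Pou2f2. The CTCF consensus, with at most 1 mismatch, was in 11 peaks (9.73%) against 10.6%, again with 5 at Pou2f2, and no CTCF match was found at Pou3f2 or Pou4f1. At the mismatches named for each motif's main count, the share over all peaks lay inside the exact binomial interval of the POU share for each of the 8 motifs except the SOX core. With more mismatches it also lay outside for the octamer (20.2%, interval 4.96 to 16.8 with 1 mismatch) and for the composite (3.39%, upper limit 3.21 with 3 mismatches). These intervals carry counting error only, and peaks of the same locus are not independent. A share inside or outside an interval is therefore a description and not a test.

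**Figure D5:**
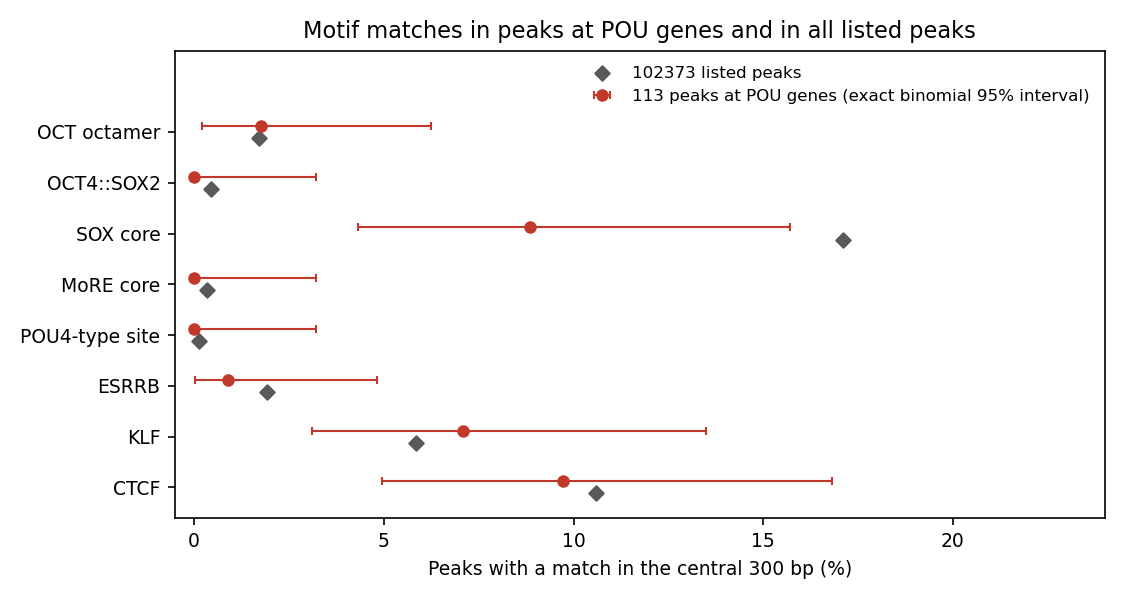
Percent of peaks with a match in the central 300 bp (x axis) for 8 motifs (y axis), for the 113 POU gene peaks (red points, exact binomial 95% intervals) and for all 102373 listed peaks (grey diamonds). With the mismatches used here, the SOX core is the motif whose share over all peaks, 17.1%, lies outside the interval of the POU gene peaks, 4.33% to 15.7%. The intervals carry counting error only, with peaks of the same locus not independent.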

How the data were processed

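ATAC-seq was performed by the authors in 20 libraries of ZHBTc4 cells, and reads were aligned to GRCm38 (mm10). Per the submitters' processing notes STAR 2.6.1c, Picard, MACS2 2.1.1.20160309 and bedtools were among the tools. The deposited file holds other values than counts: the chromosome, start and end of peaks merged over the 16 dox-treated libraries, without score or signal, so sequencing depth is unknown. The width limit of 5000 bp in the study's methods is not applied in the list, which holds 7 wider peaks, none of them at a POU gene. Whether regions open in input or blacklisted regions were removed was not tested.

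Genes and TSS came from GENCODE M21, promoter windows from RefSeq (GRCm38.p6) and bases from the GRCm38.p6 genome. Coordinates count from 1. Windows for motifs were 300 bp and extend past narrower peaks. A limma comparison between MD-OCT4 and MD*-OCT4 within phases needs values per library and was not run. All 113 peaks were kept, without a filter on low values, and genes and peaks were described without tests. Members, gene lists and motifs were chosen with earlier results of these data known. The motif search was tested on simulated sequences. The result for 1 further gene is not reported here. The scripts ran in Python 3.11.15 with scipy 1.17.1, pandas 2.3.3, numpy 2.4.6 and, for figures, matplotlib 3.10.9.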

Additional observations from a re-analysis of the deposited data

How the results depend on the processing

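With flanks of 10000 bp in place of 50000 bp, 61 peaks belonged to the 8 POU genes and the median density was 16.5 peaks per 100 kb. Of the POU gene peaks, 78.8% were distal when only TSS of protein-coding transcripts were counted, and 54% when distal meant over 2000 bp from a TSS. The 74.9% of all listed peaks was counted at the main definition, so neither value can be set beside it. Leaving out peaks under 300 bp gave a median width of 607 bp. Allowing 1 mismatch gave 11 peaks with an octamer, and searching whole peaks gave 1 peak with an OCT4::SOX2 match, at Pou2f2. The SOX core share of 8.85% was 17.2%, 7.84% and 3.03% in windows of under 50%, 50% to 60% and at least 60% GC, a split chosen after seeing the data. Of 27 alternatives, 9 were counted as moved and 18 as the same, among them all 4 for the number of POU genes with a peak at a TSS. The 18 also include sizeable changes. The 113 peaks became 163 with flanks of 100000 bp and 82 without peaks under 300 bp. In the same order the median density of 8.52 became 6.56 and 6.55, and it was 6.08 for distal peaks alone. Over all protein-coding genes these 3 medians were 6.78, 4.6 and 3.97, so the order turned with flanks of 100000 bp.

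No paired analysis was possible because no library has values of its own here. Merging makes a peak open in 1 library count like one open in all, and without scores a narrow peak cannot be told from a weak call. Consensus searches miss divergent sites. An absent peak says only that none is listed.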
